A study of Mus musculus with 50 samples.

Results

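The genes described here are 10 activity-regulated early genes, listed by symbol: the transcription factors *Npas4*, *Egr1*, *Egr2*, *Egr3*, *Nr4a1*, *Nr4a2* and *Nr4a3*, and the synaptic or secreted effectors *Arc*, *Homer1* and *Bdnf*. They are 10 of the 55385 genes in each RNA-seq table, and all 10 were found by symbol. In neurons, calcium that enters on depolarisation activates kinases and the transcription factors CREB, SRF and MEF2. These switch on many of the genes within minutes to an hour without new protein synthesis. *Npas4* is known for responding to calcium entry alone, whereas *Egr1* and the *Nr4a* genes also respond to growth factors and stress in many cell types. The proteins they encode then act on later target genes or on synapses.

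The study followed mouse spinal motor neurons in tissue from embryo to old age and in stem cell-derived cultures, with 28 RNA-seq and 22 ATAC-seq libraries in 11 groups. E10.5 RNA came from whole GFP-positive cells of C57BL/6 HB9-GFP embryos, dissociated at 37 °C and sorted, with 3 libraries. Tissue RNA from E13.5 to 2 years came from nuclei of C57BL/6 Chat-Cre;SUN1-GFP-3xMYC mice, pulled down with an antibody to GFP from the brachial and lumbar cord of several pooled animals. The ages E13.5, P13 and 2 years have 2 of these libraries, and P4, P21 and P56 have 3. The Cre line is driven by the choline acetyltransferase locus, so other cholinergic neurons carry the tag too. Cultures came from 1 Chat-Cre;SUN1-GFP-3xMYC embryonic stem cell line: DIV0 is the differentiated embryoid body before plating, and DIV7 and DIV28 are motor neurons after 7 and 28 days on primary mouse cortical astrocytes in medium with GDNF, BDNF, CNTF and IGF. The DIV28 + TTX cultures received 1 µM tetrodotoxin (TTX), which blocks voltage-gated sodium channels and so action potentials, from DIV0 to DIV28. There were 2 RNA-seq libraries each at DIV0 and DIV7 and 3 each at DIV28 and DIV28 + TTX, all from nuclei, and 2 ATAC-seq libraries in every group. ATAC-seq used whole sorted cells of HB9-GFP embryos at E10.5 and sorted GFP-positive nuclei in every other group. In tissue these came from brachial, thoracic and lumbar cord.

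The third DIV28 RNA-seq library carries DIV0 in its title and was grouped by its other labels. Its log2 counts correlated at 0.930 to 0.933 with the other DIV28 libraries and at 0.729 to 0.731 with the DIV0 libraries, and most tests that include it are also given without it. Libraries held between 2704682 and 21823500 expected counts, and 19270 to 25744 genes had counts. Of 7 motor neuron markers, choline acetyltransferase, the vesicular acetylcholine transporter and the other 5 were above 0 in every group. Their summed levels were 285 to 1810 CPM (counts scaled to a common library total). Values above 0 do not separate cell types: at P13 these markers summed to 710 to 758 CPM and oligodendrocyte markers to 1930 to 1990. Other cells were present too. In tissue, summed endothelial markers lay at 2910 to 4870 CPM at E13.5, 1240 to 1720 at P4 and 2.28 to 6.03 at P56. In bulk samples, fewer cells of a type and less RNA per cell cannot be told apart.

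The regulatory sequence just before the transcription start is where CREB binds many early genes, at the site TGACGTCA or its 5-base part TGACG. The RefSeq promoter table (GRCm38.p6) held 7 of the 10 genes with 18 starts. *Arc*, *Egr1* and *Egr3* are named only. Over the 250 bases before the start, TGACG was present on either strand at 9 of 18 starts, whereas 17.8% of the 32851 promoters in the table held it. Each of the 7 genes had at least 1 such start. That count is per gene and has no matching share, since a gene with several starts can match at any of them. Of the 9 starts, 3 belong to *Egr2*, with windows that overlap and hold the same 2 matches. The whole site TGACGTCA was found at none of the 18 starts and in 1.55% of all promoters, and the variant TCACGTCA before 1 start each of *Bdnf* and *Homer1* and in 0.35% of all promoters. TCACGTCA contains the reverse complement of TGACG, so these 2 searches overlap. The 4 stretches below carry such matches, in capitals, and lie before starts whose accessibility or RNA is described further on.
Npas4: gttcgaCGTCAcgggaTGACGtcggaagtc
Nr4a1: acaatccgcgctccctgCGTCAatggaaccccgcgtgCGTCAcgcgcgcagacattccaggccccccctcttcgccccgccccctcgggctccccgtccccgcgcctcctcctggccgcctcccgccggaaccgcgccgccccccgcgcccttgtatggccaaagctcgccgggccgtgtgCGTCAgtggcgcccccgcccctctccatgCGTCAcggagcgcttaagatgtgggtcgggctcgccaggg
Nr4a3: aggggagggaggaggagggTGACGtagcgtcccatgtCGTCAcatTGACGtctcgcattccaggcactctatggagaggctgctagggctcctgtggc
Bdnf: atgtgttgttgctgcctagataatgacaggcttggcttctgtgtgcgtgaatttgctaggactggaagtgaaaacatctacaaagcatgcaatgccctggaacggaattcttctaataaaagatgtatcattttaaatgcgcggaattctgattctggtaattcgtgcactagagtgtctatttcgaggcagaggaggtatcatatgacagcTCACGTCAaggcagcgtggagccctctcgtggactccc

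The *Npas4* stretch is chr19:4990127-4990156 on the minus strand, positions -185 to -156 from the RefSeq start, and lies in the first exon of the GENCODE gene, which starts further upstream. The *Nr4a1* stretch is chr15:101266596-101266845 on the plus strand, the 250 bases before a RefSeq start that lies 12577 bases downstream of the GENCODE gene start, within an intron of the gene. The *Nr4a3* stretch is chr4:48045055-48045152 on the plus strand, positions -250 to -153 from the RefSeq start and just upstream of the GENCODE gene. The *Bdnf* stretch is chr2:109692186-109692435 on the plus strand, before an internal promoter 17736 bases downstream of the gene start and outside exons. CGTCA is TGACG read on the other strand. The *Nr4a1* stretch holds 4 such 5-base matches and 74.4% G or C, and the *Bdnf* stretch 45.6%. Of the other motifs searched, the EGR site GCGGGGGCG was found before *Nr4a1* and in 2.57% of all promoters, the AP-1 site TGANTCA before *Bdnf* and in 6.75%, and the site AAAGGTCA that NR4A monomers bind before none of the 18 starts and in 1.34%. A match is a description of letters and not of binding.

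**Figure D1:**
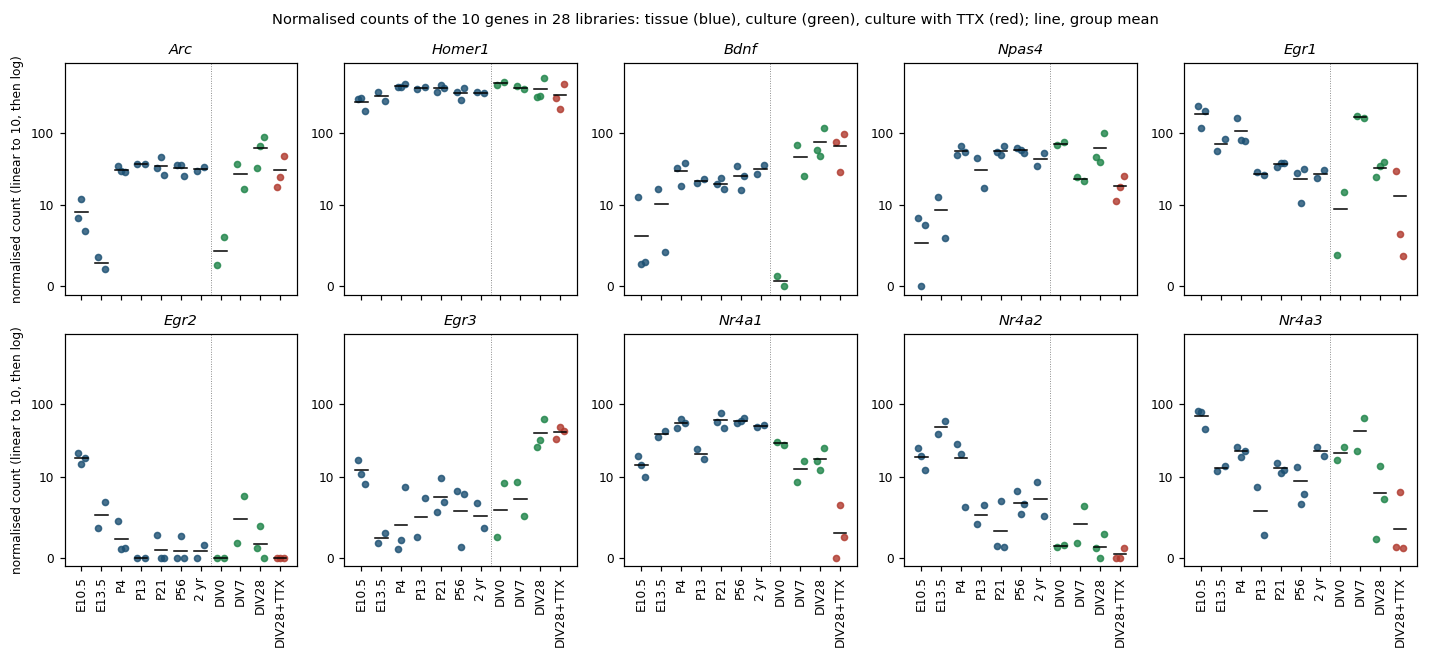
Normalised count (counts divided by the library's median-of-ratios size factor, linear to 10 and logarithmic above) of each gene in each of 28 libraries, by tissue age (blue), culture day (green) and DIV28 + TTX (red), with a line at the group mean. *Arc* and *Npas4* are low at E13.5 and higher from P4, *Egr1* and *Nr4a3* are highest at E10.5 and DIV7 in tissue and culture respectively, and *Homer1* is at 198 or above in every library.

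The 10 genes did not share 1 course in tissue. From E13.5 to P56, both measured in nuclei, *Arc*, *Npas4* and *Nr4a1* rose and *Egr1* and *Nr4a2* fell. At 5 CPM or more in every replicate of at least 1 age, 7 of the 10 genes could be tested in tissue, and *Egr2*, *Egr3* and *Bdnf* could not. Of these 7, 5 passed an adjusted p of 0.05 (edgeR), beside 78.6% of the 15030 genes tested, so the share was near that of all genes. *Nr4a2* passed the filter on low counts only through E13.5 and *Nr4a3* only through E10.5.

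*Npas4*, a neuronal factor that recruits synapses and induces *Bdnf* in cortical neurons, had 12.9 and 6.01 normalised counts at E13.5. At P4 it had 49.4, 65.5 and 53.7, and at P56 61.9, 57.6 and 52.8. The E13.5 libraries were below every tissue library from P4 onwards, and the rise to P56 was 2.85 on the log2 scale (SE 0.58, adjusted p = 0.00025, edgeR). *Arc*, which drives the removal of AMPA receptors from synapses, had 3.69 and 2.15 normalised counts at E13.5, 34.8, 29.5 and 28.7 at P4 and 35.8, 36.2 and 25.1 at P56. No later tissue library overlapped with those at E13.5, and the log2 rise to P56 was 3.67 (SE 0.44, adjusted p = 6.1e-07, edgeR). Both rises were already in place at P4, at 2.82 (SE 0.58) for *Npas4* and 3.61 (SE 0.43) for *Arc* on the log2 scale. At P13 *Npas4* had 44.3 and 17.6, both below every P4 library (log2 -0.71, SE 0.49, adjusted p = 0.28, edgeR). Markers of excitatory and inhibitory interneurons rose over the same ages, from 23.6 to 41.2 summed CPM at E13.5 to 122 to 190 at P4 and 143 to 193 at P56, with all 5 tested markers higher at both ages. Oligodendrocyte markers went from 92.8 to 97.2 up to 390 to 514 and 386 to 610 CPM, with 6 of 8 higher and 2 lower at both ages, and the part of either list in the rises was not tested.

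The *Nr4a* genes encode orphan nuclear receptors that bind DNA without a known ligand. *Nr4a1* began at 35.1 and 42.0 normalised counts (E13.5), was at 23.7 and 17.6 at P13 and reached 55.0, 58.9 and 63.3 at P56. P13 was the lowest age after E10.5, with a log2 fall of 1.28 from P4 (SE 0.30, adjusted p = 0.0029, edgeR) and a rise to P21 of 1.42 (SE 0.30, adjusted p = 0.0025). *Nr4a1* was the only 1 of the 7 tested genes to change between P13 and P21, where 21.6% of all genes did. Its rise from E13.5 to P56 was small, at 0.75 (SE 0.28, adjusted p = 0.021), and did not pass without the filter on low counts (0.51, adjusted p = 0.28), without E13.5 replicate 1 (0.65, adjusted p = 0.091) or without P56 replicate 3 (0.69, adjusted p = 0.056).

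*Nr4a2*, which is best known as a factor of midbrain dopamine neurons, went the other way. It had 38.8 and 58.3 normalised counts at E13.5, 28.0, 20.7 and 6.24 at P4, and at most 9.41 in any later library. The log2 fall to P56 was 2.70, with an SE of 0.54 (adjusted p = 2e-04, edgeR). *Nr4a2* entered the fit only through E13.5, where it was high, so the filter itself favoured a fall from that age. *Nr4a3* was highest at E10.5, at 80.9, 76.7 and 45.0 normalised counts, and had 12 and 14.2 at E13.5. Later it ranged from 2.79 in a P13 library to 25.8 in a P4 library, and the level at 2 years, 25.6 and 19.3, was above all P56 libraries, which had 13.8, 6.70 and 7.92, without passing the adjustment (log2 difference 1.28, SE 0.44, unadjusted p = 0.01, adjusted p = 0.23, edgeR).

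The *Egr* genes encode zinc finger factors that bind GC-rich sites. *Egr1* had 231, 115 and 197 normalised counts at E10.5, 55.4 and 82.8 at E13.5, 157, 79.7 and 77.4 at P4 and 28.8 and 26.0 at P13. Every library up to P4 lay above every later tissue library, and the fall from P4 to P13 was 1.83 (SE 0.40, adjusted p = 0.002, edgeR) on the log2 scale. From E13.5 to P56 *Egr1* fell by 1.44 (SE 0.41, adjusted p = 0.004, edgeR), and by 1.09 without E13.5 replicate 2 (adjusted p = 0.068). *Egr2*, the hindbrain and Schwann cell factor also called Krox20, had 21.4, 15.2 and 18.3 normalised counts at E10.5, at most 6.86 afterwards in tissue and no count in either P13 library. *Egr3* had 9.15 to 16.8 at E10.5 and at most 9.84 in any later tissue library. These 2 genes were tested only when the filter on low counts was dropped, and then *Egr3* fell from E10.5 to E13.5 by 2.24 (log2, SE 0.77, adjusted p = 0.013) and *Egr2* did not pass (adjusted p = 0.057). From E13.5 to P56 *Egr2* fell by 2.57 in that fit (SE 1.07, adjusted p = 0.044, edgeR).

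*Homer1*, a scaffold protein of the postsynaptic density, had the highest TPM, RSEM's level per transcript length and depth, of the 10 genes in every group, with group means from 7.40 at DIV28 to 24.5 at DIV7. Its short activity-induced form Homer1a cannot be told from the long forms in counts per gene. It ranged in tissue from 198 to 463 normalised counts, and its rise from E13.5 to P4 was 0.61 on the log2 scale (SE 0.19, adjusted p = 0.0079, edgeR) and 0.38 (adjusted p = 0.17) without the filter. *Bdnf*, a secreted neurotrophin, had 16.6 and 4.29 normalised counts at E13.5, 32.5, 18.6 and 38.7 at P4 and 34.4, 16.1 and 25.1 at P56. The highest E13.5 library reached the lowest P56 library, and without the filter the rise to P56 was 1.33 (log2, adjusted p = 0.023, edgeR).

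Between neighbouring ages, 5 of the 7 tested genes changed from E10.5 to E13.5, where 70.0% of all tested genes did, and 5 from E13.5 to P4, where 69.6% did. From E10.5 to E13.5 *Nr4a3*, *Arc* and *Egr1* fell by 2.49, 1.89 and 1.52 and *Nr4a1* and *Nr4a2* rose by 1.27 and 1.22 on the log2 scale. *Nr4a3* had passed the filter only through E10.5 and *Nr4a2* only through E13.5. The filter thus favoured the fall of *Nr4a3* and the rise of *Nr4a2*, and both are in the count of 5. E10.5 was measured in whole cells of another mouse line, so age, compartment and isolation cannot be told apart in this step. E13.5 replicate 2 carried several calls on either side of that age: without it *Arc* and *Nr4a2* did not pass from E10.5 to E13.5 (log2 -1.46 and 0.87, adjusted p = 0.051 and 0.19), nor *Homer1*, *Nr4a1* and *Nr4a2* from E13.5 to P4 (0.43, 0.80 and -0.90, adjusted p = 0.11, 0.071 and 0.20). The AP-1 genes *Fos* and *Fosb* were also higher at E10.5 than at E13.5. *Fos* had 44.9 to 118 against 7.29 to 9.23 normalised counts, and *Fosb* 61.5 to 87.0 against 0.429 to 1.85. From E10.5 to E13.5, 3 of 6 tested AP-1 genes fell and 1 rose. Of 22 other rapid response genes, 10 fell and 6 rose. The part of dissociation in these levels was not tested. From P4 to P13, 4 of 7 fell (*Egr1*, *Nr4a1*, *Nr4a2* and *Nr4a3*) and none rose, while 34.4% of all genes changed and 16.1% fell. The call of *Nr4a3* was lost without P13 replicate 2 (-1.23, adjusted p = 0.085), and that of *Nr4a2* without any 1 of 4 libraries (-2.04 to -1.33, adjusted p = 0.077 to 0.23). In the same step 7 of 7 endothelial, 4 of 8 pericyte or fibroblast, 5 of 8 astrocyte and 5 of 5 tested erythroid markers fell, from 1240 to 1720 down to 67.5 to 104, from 618 to 1010 down to 101 to 148, from 618 to 797 down to 392 to 523 and from 239 to 329 down to 45.9 to 54.7 summed CPM. Oligodendrocyte markers rose, 7 of 8, from 390 to 514 up to 1930 to 1990 CPM, and the part of these lists in the falls of the 4 genes was not tested. From P21 to P56 none of the 7 passed in edgeR or DESeq2 (0.0532% of all genes did in edgeR), with 0 at an unadjusted p under 0.05. None passed with either tool from P56 to 2 years (0.552%), with *Nr4a3* alone at an unadjusted p under 0.05.

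Lists of related genes gave the context of the change from E13.5 to P56, where the median of all tested genes was 0.15 on the log2 scale, 41.8% of all tested genes rose and 36.8% fell. Of 22 other rapid response genes, 17 fell and 1 rose, with a median of -1.99, from *Klf4* at -7.35 to *Per1*, a clock gene, at 2.27. Of 6 AP-1 genes, *Fos* rose by 1.43 (adjusted p = 0.02, edgeR) and 2 fell, *Jun* the furthest at -2.51, while *Fosb* was at 1.59 (adjusted p = 0.11). Of 23 genes of calcium-dependent signalling to the nucleus, 13 rose and 6 fell, from *Camk2a*, the synaptic calcium kinase, at 3.86 to *Nfatc4* at -6.34, and *Srf*, the serum response factor, fell by 1.39. Of 14 delayed response genes 7 rose and 5 fell, between *Gpr3* at 5.75 and *Cdkn1a* at -4.28. Of 14 partners and relatives of the 10 genes 5 rose and 4 fell: *Ntrk2*, the BDNF receptor, was at 2.71, and *Ntf3*, a neurotrophin related to BDNF with no count at P56, was the lowest. All 7 endothelial, 8 pericyte or fibroblast and 5 tested erythroid markers fell in the same comparison, and their part in the falls of *Egr1* and the other rapid response genes was not tested.

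**Figure D2:**
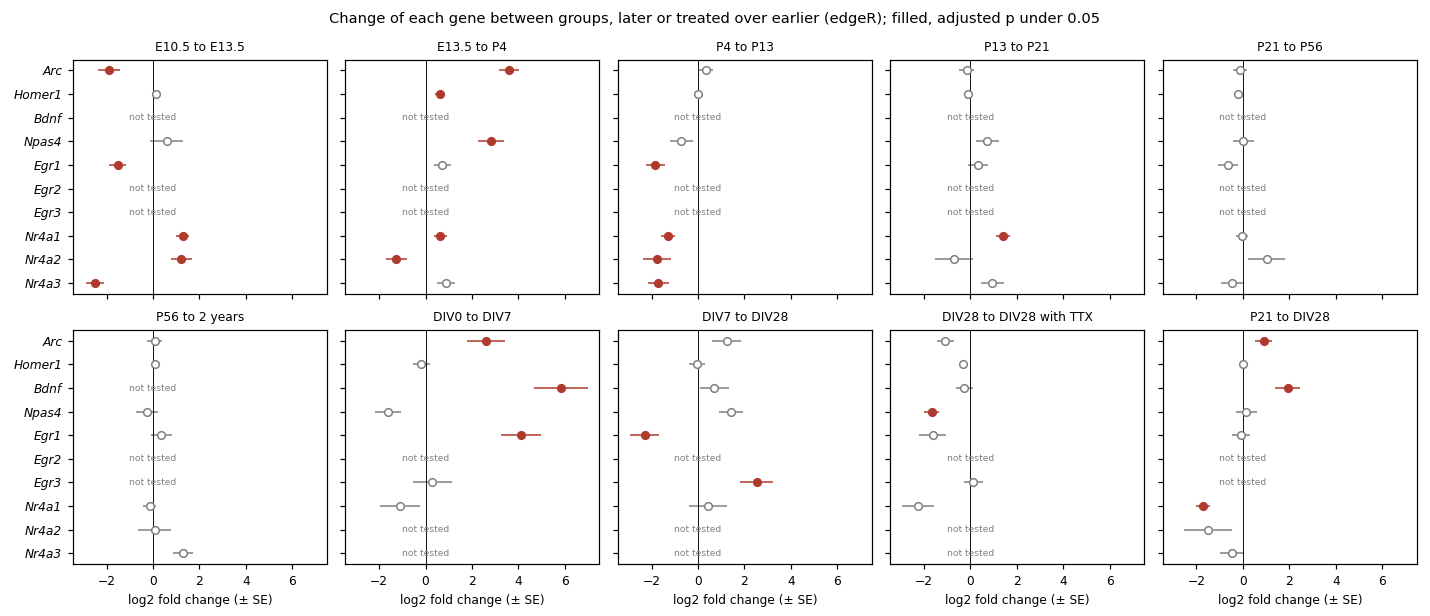
Log2 fold change with its standard error (horizontal axis) of each gene in each comparison, later or treated over earlier, from edgeR. Filled points passed an adjusted p of 0.05, and the text "not tested" marks genes below the filter on low counts. The falls from P4 to P13, the absence of filled points from P21 to 2 years and the single filled point with TTX (*Npas4* at -1.67) can be seen.

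In culture, *Bdnf*, *Egr1* and *Arc* rose in the first week, and *Egr1* fell and *Egr3* rose from DIV7 to DIV28. In culture 7 of the 10 genes passed the filter, with *Egr2*, *Nr4a2* and *Nr4a3* left out. Some passed through a single group: *Arc* through DIV28, *Egr1* through DIV7, *Nr4a1* through DIV0 and *Egr3* through DIV28 + TTX. For these genes the filter itself favoured a rise into that group and a fall from it. From DIV0 to DIV7, 3 of 7 passed, beside 23.0% of the 12890 genes tested, and from DIV7 to DIV28 2 of 7, beside 17.8%. The labels tie no DIV0 or DIV7 culture to a DIV28 culture, and the comparisons share the DIV7 libraries.

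*Egr1* had 3.92 and 15.3 normalised counts at DIV0, 171 and 159 at DIV7, and 24.3, 34.6 and 39.4 at DIV28. Both DIV7 libraries stood far above the rest of the cultures, with a log2 rise of 4.13 (SE 0.86, adjusted p = 0.0049, edgeR) and a later fall of 2.30 (SE 0.64, adjusted p = 0.03). *Arc* had 2.61 and 6.12 normalised counts at DIV0, 37.5 and 16.6 at DIV7, and 32.4, 65.6 and 87.5 at DIV28. Its rise to DIV7 was 2.61 (SE 0.83, adjusted p = 0.041, edgeR), and the groups at DIV7 and DIV28 overlapped. The rise of *Arc* did not pass without any 1 of the 4 DIV0 and DIV7 libraries (log2 1.89 to 3.30, adjusted p = 0.054 to 0.24 in edgeR), and that of *Egr1* did not pass without DIV0 replicate 1 (3.45, adjusted p = 0.063).

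*Bdnf* had 1 count in both DIV0 libraries together and 56 at DIV7, a ratio of 60.4 after scaling with an interval of 10.4 to 2430 that covers counting error only. In normalised counts, it was at 1.31 and 0 at DIV0, 67.5 and 25.5 at DIV7, and 57.9, 48.5 and 117 at DIV28. The later groups overlapped each other and not DIV0 (adjusted p = 0.0038 for DIV0 to DIV7, edgeR). BDNF protein was itself in the medium of the co-cultures. *Egr3* had 2.61 and 9.17 normalised counts at DIV0, 9.38 and 5.10 at DIV7 and 25.5, 32.3 and 62.7 at DIV28. Every DIV28 library was above all earlier ones and above all tissue libraries, and the log2 rise from DIV7 was 2.52 (SE 0.69, adjusted p = 0.026, edgeR). Without DIV28 replicate 3, the rise of *Egr3* was 2.05 (adjusted p = 0.077) and the fall of *Egr1* 2.44 (adjusted p = 0.054), so neither passed. Leaving out any other 1 library of DIV7 or DIV28 also ended the call of *Egr1* (log2 -2.35 to -2.15, adjusted p = 0.074 to 0.14), and leaving out either DIV7 library that of *Egr3* (2.13 to 2.99, adjusted p = 0.095 to 0.20).

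*Npas4* was already present at DIV0, at 66.6 and 73.4 normalised counts, which is above the 2 E13.5 libraries of tissue. It had 24.4 and 21.7 at DIV7 and 46.4, 39.4 and 97.7 at DIV28, and neither step passed the adjustment (log2 -1.60, adjusted p = 0.061, and 1.42, adjusted p = 0.082, edgeR). The fall to DIV7 passed in DESeq2 (-1.63, adjusted p = 0.038), with a replicate block (-1.60, adjusted p = 0.019) and with only the 2 groups in the fit (-1.60, adjusted p = 0.0089), and did not pass without any 1 of the 4 libraries (-1.72 to -1.53, adjusted p = 0.16 to 0.23). Without DIV28 replicate 3 the later step was at 0.91 (adjusted p = 0.27). *Nr4a1* had 30.1 and 27.5 normalised counts at DIV0, 9.38 and 16.6 at DIV7, and 16.2, 12.3 and 24.8 at DIV28, without a step that passed. *Nr4a3* reached 22.5 and 63.8 normalised counts at DIV7 and 2.32, 14.2 and 7.29 at DIV28, and without the filter this fall of 2.35 on the log2 scale had an adjusted p of 0.033 (edgeR). *Nr4a2* and *Egr2* stayed at or below 6.38 and 7.65 normalised counts in every culture library. The summed pericyte and fibroblast markers were 33.3 and 481 CPM in the DIV7 libraries and 0.243 to 1.43 at DIV0, with 2 of 2 tested markers higher. Endothelial markers went from 1.7 to 2.57 up to 15.8 to 22.9 CPM (1 of 1 higher) and interneuron markers from 2.43 to 3.15 up to 26.2 to 44.0 (2 of 3 higher). Astrocyte markers were at 170 to 189 and 187 to 335 CPM, with 4 of 8 higher, and the part of these lists in the DIV7 values was not tested.

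With TTX for 28 days, *Npas4* fell in every pair and was the only 1 of 7 tested genes to pass (adjusted p = 0.016, edgeR with the culture pair as a block), where 4.89% of the 12890 genes passed. The same-numbered DIV28 and DIV28 + TTX cultures were grown in parallel. *Npas4* had 46.4, 39.4 and 97.7 normalised counts at DIV28 and 11.6, 17.9 and 25.2 with TTX, in the order of the pairs. Each TTX culture was below every untreated one, at 0.250, 0.455 and 0.258 of its own pair. The log2 fall was 1.67 (SE 0.33). Without the pair in the model it was 1.76 with an adjusted p of 0.19, and 0.209% of all genes passed. Without DIV28 replicate 3, the library with the DIV0 title, it was 1.5 (adjusted p = 0.16), and without DIV28 replicate 1, TTX replicate 1 or TTX replicate 3 it did not pass either (log2 -1.54 to -1.5, adjusted p = 0.093 to 0.14).

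*Nr4a1* had 16.2, 12.3 and 24.8 normalised counts at DIV28 and 0, 6.51 and 2.52 with TTX. The groups did not overlap, and the untreated libraries held 86 counts against 14, a scaled ratio of 3.93 with a counting interval of 2.22 to 7.49. The log2 change was -2.25 (SE 0.70, adjusted p = 0.093, edgeR), which missed the threshold, while it passed without the filter on low counts (-2.46, adjusted p = 0.032) in DESeq2 (-2.63, adjusted p = 0.044) and without TTX replicate 2 (-3.95, adjusted p = 0.049). *Npas4* and *Nr4a1* were the 2 of 7 tested genes whose TTX values all lay below the untreated ones, beside 5.57% of all tested genes.

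*Arc* was at 0.556, 0.381 and 0.548 of its untreated partner in the 3 pairs, from 32.4, 65.6 and 87.5 normalised counts to 18, 25 and 48.0. All pairs went down while the groups overlapped, and the log2 change was -1.08 (SE 0.38, adjusted p = 0.13, edgeR). *Egr1* had 24.3, 34.6 and 39.4 normalised counts at DIV28 and 29.6, 6.51 and 3.79 with TTX. In pair 1 it was 1.22 times its partner, and in pairs 2 and 3 it was 0.188 and 0.0961 of it, so 1 pair differed in direction from the others (log2 change -1.63, SE 0.59, adjusted p = 0.14, edgeR). Without the filter on low counts or in DESeq2, *Egr1* passed, at -1.67 (adjusted p = 0.004) and -1.73 (adjusted p = 0.046). Without DIV28 replicate 1 or TTX replicate 1, it was at -2.74 and -2.72 and passed (adjusted p = 0.037 and 0.036).

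*Egr3* and *Bdnf* did not go 1 way over the 3 pairs. *Egr3* had 33.5, 48.9 and 42.9 normalised counts with TTX, above its partner in pairs 1 and 2 and below it in pair 3 (log2 change 0.13, SE 0.41, adjusted p = 0.90, edgeR). *Bdnf* had 73.4, 28.8 and 95.9 normalised counts with TTX, at 1.27, 0.594 and 0.822 of its partners, with a log2 change of -0.27 (SE 0.37, adjusted p = 0.74). *Homer1* had 300, 212 and 461 normalised counts with TTX against 307, 318 and 558 without, lower in each pair and by 0.33 on the log2 scale (SE 0.14, adjusted p = 0.23, edgeR). In all, 4 of the 7 tested genes (*Arc*, *Npas4*, *Nr4a1* and *Homer1*) were lower in all 3 pairs, beside 20.4% of all tested genes, and none was higher in all 3. Of these, *Arc* had passed the filter only through DIV28, the untreated group. *Egr2* had 1, 12 and 0 counts in the DIV28 libraries and 0 in each with TTX, so nearly all its counts came from DIV28 replicate 2. *Nr4a3* was lower in each pair, at 1.29, 8.14 and 1.26 normalised counts with TTX, and did not pass without the filter (log2 -1.24, adjusted p = 0.63). *Nr4a2* held 5 counts at DIV28 and 1 with TTX. Without DIV28 replicate 3, the log2 changes were -1.85 for *Nr4a1*, -1.17 for *Arc*, -1.09 for *Egr1*, 0.49 for *Egr3*, -0.24 for *Bdnf* and -0.34 for *Homer1*, and none of these passed (adjusted p = 0.34 to 0.87, edgeR).

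**Figure D3:**
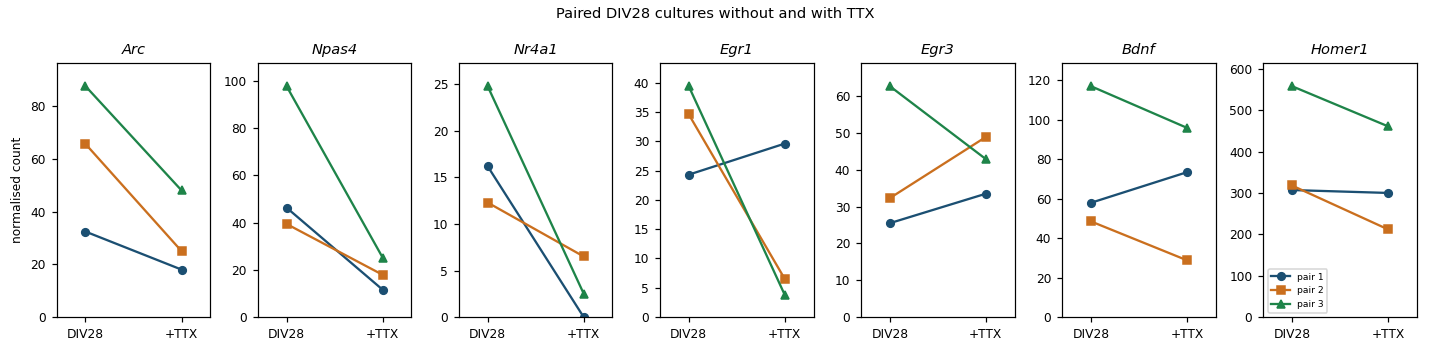
Normalised count (vertical axis from 0, 1 scale per gene) of the 7 tested genes in the 3 pairs of DIV28 cultures without and with TTX, 1 line per pair. *Arc*, *Npas4*, *Nr4a1* and *Homer1* fall in every pair, *Egr1* falls in pairs 2 and 3 and not in pair 1, and *Egr3* and *Bdnf* go both ways.

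*Fos*, below the filter, had 22, 28.4 and 32.1 normalised counts at DIV28 and 10.3, 0 and 5.05 with TTX. *Fosb* had 12.7, 1.94 and 8.75 against 1.29, 0 and 0, and *Egr4* 9.27, 5.17 and 5.83 against 1.29, 0 and 1.26. For each of *Fos*, *Fosb* and *Egr4* every value with TTX was below every value without. All 3 genes lay below the filter and were not tested. The share of 5.57% without overlap covers tested genes only, so no share over genes at such low counts stands beside them. The 3 were named with earlier results of these data known. Among the tested lists, 1 of 4 AP-1 genes fell, *Fosl2* at -1.05 (SE 0.17, adjusted p = 0.0052, edgeR), and 2 of 17 other rapid response genes, *Btg2*, an antiproliferative gene, at -1.72 (SE 0.26, adjusted p = 0.0034) and *Ppp1r15a* at -1.10 (SE 0.16, adjusted p = 0.0034). Of 12 delayed response genes, *Plk2*, a polo-like kinase, rose by 1.11 and *Rgs2* and *Gpr22* fell by 1.54 and 1.36. Of 12 partners and relatives *Ngfr* alone passed, at 1.21, and *Ntrk2* was at -0.06 (adjusted p = 0.86). Of 22 genes of calcium-dependent signalling *Mapk3* alone passed, at 0.69, and *Srf* was at 0.50 (adjusted p = 0.43). The list medians on the log2 scale were -1.08 for the 7 genes, -0.59 for AP-1, -0.38 for the other rapid genes, -0.37 for the delayed genes, -0.05 for partners and 0.05 for calcium signalling, beside 0.00 for all genes tested.

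Cell type markers were read beside these values. Of 7 motor neuron markers 3 fell with TTX, *Chat* at -1.33 (SE 0.18, adjusted p = 0.0023, edgeR), *Slc18a3* at -0.85 and *Ache* at -0.74, while the summed markers were 898 to 1520 CPM at DIV28 and 955 to 1810 with TTX. Astrocyte markers summed to 61.8 to 138 and 53.5 to 140 CPM, with 1 of 8 higher (*Gja1*) and 1 lower (*Slc1a2*). Pericyte and fibroblast markers summed to 1.19 to 75.4 and 1.91 to 259, interneuron markers to 61.8 to 114 and 38.3 to 94.1, and endothelial markers to 18.3 to 32.5 and 7.44 to 24.5. Microglia and macrophage markers summed to 2.73 to 5.68 and 1.97 to 4.75 CPM, with 5 of 7 above 0 at DIV28 and all 7 with TTX. These summed ranges overlapped between the conditions, and their part in the differences was not tested.

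To compare culture with tissue, P21 and DIV28 were set side by side in a fit of the 25 libraries without TTX, where 8 of the 10 genes were tested. At DIV28, *Bdnf* was higher by 1.93 (SE 0.53, adjusted p = 0.0041, edgeR) and *Arc* by 0.89 (SE 0.36, adjusted p = 0.042) on the log2 scale, and *Nr4a1* lower by 1.72 (SE 0.31, adjusted p = 8.3e-05). These 3 of 8 compare with 52.1% of the 15521 genes tested. *Nr4a1* had 57.3, 75.9 and 47.0 normalised counts at P21, all above the highest DIV28 library. *Bdnf* had 19.6, 23.9 and 16.6 normalised counts at P21, and no P21 library reached a DIV28 library. The call of *Arc* was lost without DIV28 replicate 3 (0.61, adjusted p = 0.18) without P21 replicate 1, P21 replicate 3 or DIV28 replicate 2 (0.73 to 0.85, adjusted p = 0.085 to 0.15) and in DESeq2 (0.85, adjusted p = 0.054), whereas *Bdnf* (1.48, adjusted p = 0.027) and *Nr4a1* (-2.03, adjusted p = 3.8e-05) passed without that library. *Npas4* and *Egr1* were at 0.15 (SE 0.44) and -0.09 (SE 0.38), and *Egr3*, tested only without the filter, was higher at DIV28 by 2.49 (adjusted p = 0.00035) and, without DIV28 replicate 3, by 2.05 (adjusted p = 0.01). *Nr4a2* was at -1.50 (adjusted p = 0.22) and passed without that library (-3.08, adjusted p = 0.045). Cell type markers differed in the same comparison. Of the oligodendrocyte markers 7 of 8 were lower at DIV28, at 1070 to 1430 CPM in P21 and 9.85 to 14.1 in DIV28, as were 5 of 5 tested erythroid markers (36.3 to 71.0 and 0 to 0.204), 5 of 8 astrocyte markers (242 to 312 and 61.8 to 138, 1 higher), 4 of 5 interneuron markers (104 to 160 and 61.8 to 114, 1 higher) and 4 of 7 endothelial markers (6.26 to 14.1 and 18.3 to 32.5, 1 higher). The part of these lists in the differences between culture and tissue was not tested.

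Ordered by group mean, the levels of most genes formed runs of groups with overlapping libraries. *Arc* was highest at DIV28, at 61.8 ± 27.7 normalised counts (SD, n = 3), and DIV28, P13, P21, P56, 2 years, P4, DIV28 + TTX and DIV7 each overlapped the next in order, with E10.5, DIV0 and E13.5 below. *Egr1* was highest at E10.5, at 181 ± 59.8 (SD, n = 3), followed by DIV7 at 165 ± 7.99 (SD, n = 2), which overlapped, and P4 at 105 ± 45.3 (SD, n = 3), which did not reach DIV7. *Nr4a1* with TTX, at 3.01 ± 3.28 (SD, n = 3), was the lowest group mean of that gene.

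Over the 11 group means of log2 normalised count plus 1, the genes with courses most like *Arc* were *Trim9*, *Rab6b* and *6330403L08Rik*, with Pearson's r of 0.965 to 0.969. For *Bdnf* they were *Sema3e*, *Abcb1b* and *Pdgfa* (0.973 to 0.988), for *Egr1* *Syngr2*, *Spred2* and *Dpy19l3* (0.896 to 0.933), and for *Nr4a1* *Plch2*, *Rfx5* and *D930048N14Rik* (0.892 to 0.932). For *Nr4a3* they were *Fbxl6*, *Zranb3* and *Jade3* (0.909 to 0.940), and for *Npas4* and *Homer1* only predicted or Riken genes (0.961 to 0.969 and 0.925 to 0.941). Among the 10 genes the closest courses were those of *Arc* and *Bdnf*, at 0.83. These are descriptions over 11 points that share the isolation of their RNA within tissue and culture, and *Egr2*, *Egr3* and *Nr4a2*, with means under 20 normalised counts, were not ranked.

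Chromatin at these genes was open in most groups whether or not their RNA was high. Peaks had been called in each ATAC-seq library, and a peak lay within 1000 bp of the GENCODE gene start in both libraries for 8 or 9 of the 10 genes in every group, beside 59.3 to 64.6% of 21911 genes. *Homer1* lacked it in every group, *Bdnf* lacked it in 5 groups and *Nr4a2* at P56. When any coding transcript start was used, an alternative chosen after the peaks were seen, all 10 genes had a peak in both libraries of all 11 groups, beside 62.9 to 68.3% of all genes. How many reads lie behind the peaks is not known, so peaks were ranked within each library and no interval is given.

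**Figure D4:**
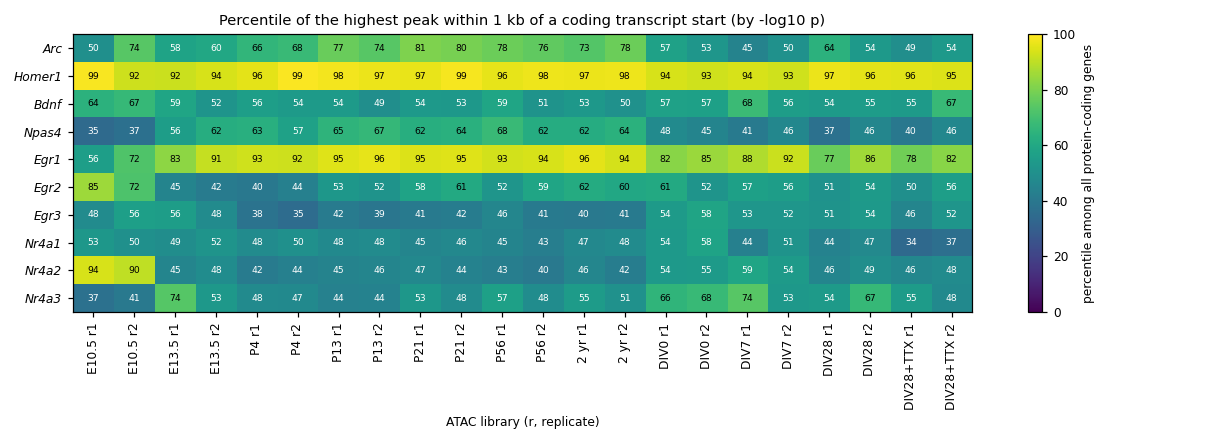
Percentile of each gene's highest peak within 1000 bp of a coding transcript start among all protein-coding genes, by −log10 p, in the 22 ATAC-seq libraries (columns, 2 per group). *Homer1* is at 92.0 or above in every library, *Egr1* is higher from E13.5 to 2 years than at E10.5, and *Nr4a1* is lowest in the 2 DIV28 + TTX libraries.

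Among peaks that reached within 1000 bp of the gene start, those of *Egr1* had their summits 1063 to 1241 bp downstream of it. These *Egr1* peaks had a fold enrichment over local background of 3.53 and 7.42 at E10.5 and 14.0 and 13.2 at P56. Their percentiles were 58.9 and 74.0 at E10.5 and 92.7 to 96.5 from P4 to 2 years. The RNA of *Egr1* was highest at E10.5, while its peak percentile was lowest there. For peaks too, E10.5 came from whole cells of another mouse line. Age, line and isolation therefore cannot be told apart in any comparison of peaks with E10.5. *Nr4a2* peaks had a fold enrichment of 8.01 and 11.7 at E10.5 with percentiles of 94.4 and 90.9. At E13.5, where the RNA of *Nr4a2* was highest, the percentiles were already 45.9 and 51.3. They were 43.1 and 43.1 at P21 and 40.1 and 40.1 at 2 years, with no peak at P56. *Npas4* had percentiles of 38.3 and 40.5 at E10.5 and 58.2 to 69.5 in the later tissue libraries, and 41.3 to 51.0 in all culture libraries. The printed *Npas4* window, taken over its 250 bases, carried a peak in 20 of 22 libraries and in neither E10.5 library. The *Nr4a1* and *Nr4a3* windows carried one in 22 of 22 and the *Bdnf* window in 16 of 22, with none at E10.5 or DIV7.

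With TTX, the *Nr4a1* window printed above was less enriched. Its fold enrichment was 9.80 and 7.86 at DIV28 and 3.75 and 3.57 with TTX, and 4.02 and 5.72 at DIV7. Neither TTX library reached a DIV28 library, and the ratio of the means was 0.415. Among 14269 promoter windows with a peak in all 4 DIV28 libraries, 4.94% were lower with TTX without overlap and 0.0140% had a smaller ratio, with a median ratio of 1.00. At the *Nr4a1* gene start, 12577 bases upstream, the values were 8.70 and 5.57 against 4.34 and 3.96. With 2 libraries per condition no test was made, and *Nr4a1* was singled out after its values were seen. The *Npas4* window went the other way, with 4.50 and 5.71 at DIV28 and 5.72 and 6.29 with TTX, and 1 of the 2 *Bdnf* windows with a peak in all 4 libraries was also higher without overlap, where 7.31% of all windows were. The printed *Bdnf* window had 5.03 and 3.15 against 3.70 and 3.95, which overlapped.

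Within 100 kb of the 10 gene starts, 163 peaks were shared by both DIV28 libraries, and 4 of them (2.45%) met no peak in either TTX library, beside 6.10% of such peaks around all genes. In the other direction, 12 of 160 peaks (7.50%) shared by the TTX libraries met none at DIV28, beside 5.34% around all genes. The 4 peaks lay near *Nr4a1*, *Nr4a3*, *Bdnf* and *Homer1*, and the one near *Nr4a3*, at chr4:48090665-48091304, 45706 bases downstream of its start, had the highest fold enrichment, at 6.84. When 1 of the 4 libraries was left out, which loosens the rule for such a peak, the counts ranged from 8 to 48 and from 15 to 29.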

How the data were processed

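RNA-seq and ATAC-seq files were used as deposited. Per the methods and the submitters' processing notes, the authors trimmed reads with Trim Galore, aligned RNA reads to mm10 with STAR 2.5.2b and estimated expected counts and TPM per gene with RSEM 1.3.0. For ATAC-seq the authors aligned with BWA, used SAMtools 1.7.2 and called peaks per library with MACS2 2.2.7.1 at a p limit of 0.01, which gives each peak's fold enrichment, a ratio to local background, and its −log10 p and −log10 q. The depth behind the ATAC-seq peaks is not known.

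Expected counts were rounded, filtered (a gene needed 5 CPM throughout the replicates of some group), scaled with TMM factors and tested with edgeR 4.0.16 (quasi-likelihood, p adjusted by Benjamini-Hochberg across each fit's genes, threshold 0.05) in R 4.3.3. Fits used the 18 tissue, 10 culture or 25 untreated libraries. The TTX test had the culture pair as a block, since the study's supplement states that same-numbered cultures were grown together. Their deviations from the group means correlated at 0.465, 0.387 and 0.574, and those of other combinations at -0.316 to -0.118. Normalised counts use median-of-ratios size factors, and TPM served only to compare genes within a library. Nothing else in the labels says that replicates are separate litters or cultures, so p-values measure the spread between libraries.

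The test was checked on simulated data at the real library sizes. Alternatives were DESeq2 1.42.0, median-of-ratios factors, no filter, the study's limits (unadjusted p under 0.001 and 2-fold), only the 2 groups, replicate blocks and leaving out each library. All 10 genes are named, and of the other lists the called genes with the lowest and highest change, plus *Fos*, *Fosb*, *Egr4*, *Ntrk2* and *Srf*. 1 gene that this rule names is not reported here. The genes and lists were chosen with earlier results of these data known. Count intervals are 95% and exact, and cover counting error only. Promoters are from RefSeq on GRCm38.p6 and gene starts from GENCODE M21 on mm10.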

Additional observations from a re-analysis of the deposited data

Results flagged for a closer look

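For 4 genes the change over the culture span, DIV0 to DIV28, differed from that over the tissue span, E13.5 to P21, in a contrast of the 25-library edgeR fit that was chosen after the data were seen. The contrast passed for 63.4% of the 15521 genes tested, and for 4 of the 8 genes tested here. *Bdnf* rose by 6.56 on the log2 scale in culture and was at 1.05 in tissue, a difference of 5.51 (SE 1.35, adjusted p = 0.0012), which rests on 1 count at DIV0 (360 at DIV28, scaled ratio 95.9, counting interval 17.1 to 3800). *Egr1* rose by 1.89 in culture and fell by 0.95 in tissue, a difference of 2.84 (SE 0.67, adjusted p = 0.00093). *Npas4* was at -0.15 in culture, where DIV0 was already high, and rose by 2.65 in tissue, a difference of -2.79 (SE 0.76, adjusted p = 0.0031). *Nr4a1* was at -0.67 in culture and 0.60 in tissue, a difference of -1.27 (SE 0.49, adjusted p = 0.027). Without DIV28 replicate 3 these 4 differences were 5.11, 2.81, -3.22 and -1.51 (adjusted p = 0.0022, 0.0015, 0.00073 and 0.0096), and *Homer1* passed as well (-0.78, adjusted p = 0.016). *Arc* did not pass, with rises of 3.90 and 3.61 and a difference of 0.29 (SE 0.93, adjusted p = 0.80). Both start points differ in kind, nuclei of embryoid bodies against nuclei of tissue with 2910 to 4870 CPM of endothelial markers. The part of this in the differences was not tested.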

How the results depend on the processing

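The counts of changed genes below are out of those tested, and the cause of each shift was not tested unless fewer samples or genes explain it. With the study's limits they were 2 for E13.5 to P4 and 2 for P4 to P13, 3 for E13.5 to P56, 0 for DIV7 to DIV28 and 1 for P21 to DIV28. With only the 2 groups in the fit, they were 2 for P4 to P13, 3 for E13.5 to P56, 1 for DIV7 to DIV28 and 2 with TTX (*Npas4* and *Arc*). With TTX, 3 genes passed without the filter and 3 in DESeq2 (*Npas4*, *Egr1* and *Nr4a1* in both), and 0 without the replicate block. The block is thus needed for the TTX call. Replicate numbers in the other groups share only a number: with a block on them 4 genes passed for E10.5 to E13.5, 6 for E13.5 to P4, 4 for DIV0 to DIV7 and 2 for P21 to DIV28, and the other counts were as without it. Leaving out 1 library in turn gave 3 to 5 for E10.5 to E13.5, 2 to 5 for E13.5 to P4, 2 to 4 for P4 to P13, 1 to 2 for DIV0 to DIV7, 0 to 1 for DIV7 to DIV28 and 0 to 2 with TTX. The lowest counts in tissue came without E13.5 replicate 2 (3 and 2) and without P13 replicate 2 (2). *Egr3* with TTX lay between -0.16 and 0.49 on the log2 scale in these fits, changing sign without DIV28 or TTX replicate 2. Of peaks at gene starts, 5 genes kept one in both E10.5 libraries at a −log10 q of at least 2. Of peaks within 50 kb, 2 were found only at DIV28 and 7 only with TTX, and at that q 4 only with TTX. Without 1 ATAC-seq library these counts within 100 kb were 8 to 48 and 15 to 29. Leaving out a library loosens the rule for such a peak, so higher counts follow from the rule and cannot show whether the counts are stable. Of 661 alternative values, 546 were judged the same as the main one. For single genes this meant the same direction and side of the threshold. For counts of genes or peaks it meant a value within a set factor of the main count.

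Few counts limit *Egr2*, *Nr4a2* and, at DIV0, *Bdnf*. On data simulated at the real library sizes, a 2-fold change from DIV0 to DIV7 was found for 2 of 100 genes. A 4-fold change was found for 55 of 100, beside 70 and 100 of 100 with TTX. The changed genes were drawn only from genes above a minimum mean count, and no pair effect was simulated. Some of the genes described here, such as *Nr4a1* in culture, lie below that minimum, so recovery for them was not measured.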
